A study of Mus musculus with 2 samples.

Results

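Described here are cultured mouse hematopoietic stem cells with few transcripts of 4 proliferation genes, which number 750 of 7075 cells kept and of 10042 cell barcodes in all. A cell was kept when it held at least 5000 and under 50000 UMIs (unique molecular identifiers, each standing for 1 captured transcript) and at least 500 genes. At most 10% of its UMIs were mitochondrial, and Pf4, a platelet chemokine, made up less than 0.3% of them. Low-proliferation cells are the kept cells in which the summed UMIs of Mki67, Top2a, Cdk1 and Rrm2 were below 200 CPM (UMIs in every 1000000 UMIs of the cell). This rule found 170 of 2495 kept cells in the RO-3066 library and 580 of 4580 in the DMSO library. The other kept cells, 2325 in RO-3066 and 4000 in DMSO, are what they are set against. The members were thus chosen by measured UMIs of these 4 genes in the same cells and every difference between them and the other cells is a description and none was tested.

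The study kept these stem cells in suspension for 48 h, 1 culture in RO-3066 and 1 in the vehicle dimethyl sulfoxide (DMSO), and read transcript 3' ends by droplet single-cell RNA sequencing. The labels give the compound by that name alone, with no dose and no target, and name the tissue as blood and the cells as hematopoietic stem cells. Strain, age, genotype and the sort or gate behind the cells were not given in the sources used here. With 1 library per treatment nothing below could be checked in replicates, and the cells of a library are not replicates. The RO-3066 library held 3882 barcodes with 171821236 UMIs and the DMSO library 6160 barcodes with 188022321 UMIs. Summed over cells, the low-proliferation cells held 3563284 UMIs in RO-3066 and 9124017 in DMSO, and the other cells 66336596 in RO-3066 and 99565649 in DMSO. Between the libraries, 7 barcode sequences were shared, 3 of them by kept cells and 0 by low-proliferation cells. Doublets were left in. A score against simulated doublets marked 0 low-proliferation cells in RO-3066 and 1 in DMSO, against 49 other cells in RO-3066 and 182 in DMSO.

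Hematopoietic stem cells are known for long periods out of division, and culture with cytokines brings them into cycle. A dividing cell first licenses its replication origins, then copies its DNA while it makes histones, and last builds the spindle and kinetochores of mitosis, and many of the genes for these steps are transcribed in waves. Genes of the G2 and M wave are held down in resting cells by a repressor complex known from human and mouse cells, which binds a promoter element called the cell cycle homology region, often with CCAAT boxes nearby.

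The 12 genes furthest below the other cells in both libraries, among those of at least 50 CPM outside the histones and the rule genes, are named with their values among the results, and 9 of them have a RefSeq promoter. Of these, 3 had both that element (TTTGAA, or TTCAAA on the other strand) and a CCAAT box (ATTGG on the other strand) in the 250 bases before the transcription start. These promoters are shown because most genes of the G2 and M phase list, as counted further on, were below the other cells. They encode a kinesin that separates the spindle poles (Kif11), a ubiquitin-conjugating enzyme of the anaphase-promoting complex (Ube2c) and a spindle protein (Ckap2l). The sequences are from RefSeq on GRCm38.p6, each read 5′ to 3′ on the gene's strand and ending at the base before the start, with the motifs in capitals. Kif11 lies on the plus strand (chr19:37376132-37376381), Ube2c on the plus strand (chr2:164769679-164769928) and Ckap2l on the minus strand (chr2:129297213-129297462). In Ube2c the capitals CCAATTGG are a CCAAT and an ATTGG that overlap.
Kif11: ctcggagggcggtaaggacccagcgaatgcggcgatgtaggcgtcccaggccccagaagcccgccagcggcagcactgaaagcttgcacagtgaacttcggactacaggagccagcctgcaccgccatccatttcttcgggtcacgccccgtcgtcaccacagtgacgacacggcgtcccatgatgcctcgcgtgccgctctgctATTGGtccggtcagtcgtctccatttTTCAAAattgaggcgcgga
Ube2c: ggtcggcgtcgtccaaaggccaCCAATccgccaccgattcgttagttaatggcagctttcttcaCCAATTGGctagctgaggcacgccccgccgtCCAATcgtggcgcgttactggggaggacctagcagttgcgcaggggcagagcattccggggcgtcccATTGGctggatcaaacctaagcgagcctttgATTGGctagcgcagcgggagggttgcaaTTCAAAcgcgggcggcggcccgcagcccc
Ckap2l: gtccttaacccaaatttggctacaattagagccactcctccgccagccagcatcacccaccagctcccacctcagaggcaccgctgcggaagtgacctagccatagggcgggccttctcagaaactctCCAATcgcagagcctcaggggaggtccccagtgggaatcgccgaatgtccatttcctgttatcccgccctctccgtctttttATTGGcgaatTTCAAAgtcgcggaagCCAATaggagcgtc
The TTCAAA began 19 bases before the start in Kif11, 29 in Ube2c and 30 in Ckap2l. A match of these letters is a description and not a bound site.

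**Figure D1:**
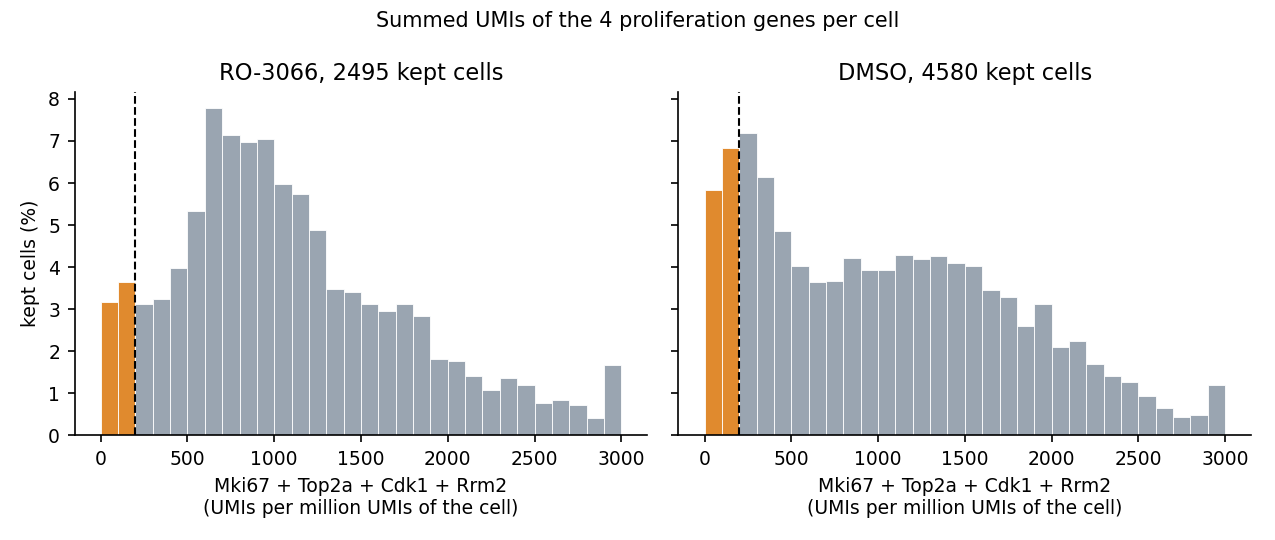
Kept cells (%) by summed UMIs of Mki67, Top2a, Cdk1 and Rrm2 in CPM of the cell, with RO-3066 on the left and DMSO on the right, and cells at the far right pooled. Orange bars left of the dashed line at 200 are the low-proliferation cells, 6.81% of kept cells in RO-3066 and 12.7% in DMSO.

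Low-proliferation cells made up 6.81% of kept cells in RO-3066 (exact Clopper-Pearson 95% interval 5.86 to 7.87) and 12.7% in DMSO (11.7 to 13.7). These intervals, like those of folds below, cover counting error only. The limits on UMIs and Pf4 took out different numbers of cells in the libraries. At 50000 UMIs or more lay 1161 barcodes of RO-3066 and 540 of DMSO, and at or over the Pf4 limit 729 of RO-3066 and 1465 of DMSO, and their part in the shares was not tested beyond lifting the limits. With no upper UMI limit, an alternative chosen after the data were seen, the share was 5.67% in RO-3066 and 12.4% in DMSO. With no Pf4 limit it was 6.67% in RO-3066 and 11.6% in DMSO. Called on cells thinned to 5000 UMIs each, it was 6.37% in RO-3066 and 10.3% in DMSO.

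The line at 200 CPM cut through a continuous distribution, as the histogram of kept cells shows. In RO-3066, 37 low-proliferation cells (21.8%) had 0 UMIs of the 4 genes and the highest count was 7; in DMSO, 130 (22.4%) had 0 and the highest was 5. Just inside the line, at 150 to 200 CPM of the 4 genes, the G2 and M phase list summed to 3584 CPM (here over the summed UMIs of the cells) in 39 cells of RO-3066. Just outside, at 200 to 250, it summed to 3536 CPM in 40 cells. In DMSO the sums were 5292 CPM inside and 4928 CPM outside, in 176 cells each. Cells on both sides of the line were thus alike in these genes, and the class is a range of a score and not a type.

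The 4 genes of the rule were low by construction and check nothing. Mki67, a protein that coats mitotic chromosomes (chromosome 7, 135689784 to 135716361, mm10), stood at 21.6 CPM in low-proliferation cells of RO-3066 against 362 CPM in its other cells, and at 34.3 CPM against 357 CPM in other cells of DMSO. Top2a, the topoisomerase that untangles replicated DNA (chromosome 11, 98992943 to 99024189), had 43.8 CPM against 478 CPM in other cells of RO-3066 and 28.7 CPM against 609 CPM in other cells of DMSO. Cdk1, the main mitotic kinase, had 26.4 CPM against 229 CPM in other cells of RO-3066 and 26.6 CPM against 235 CPM in other cells of DMSO. Rrm2, a subunit of the enzyme that makes deoxynucleotides, had 14.3 CPM against 61.4 CPM in other cells of RO-3066 and 16.9 CPM against 88.6 CPM in other cells of DMSO.

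Cdkn1a, which encodes the Cdk inhibitor p21 (chromosome 17, 29090976 to 29100727), was no part of the rule. It was at 84.2 CPM in low-proliferation cells of RO-3066 and 52.8 CPM in its other cells, and at 28.2 and 17.1 CPM in those classes of DMSO. The ratios were 1.60 (1.41 to 1.80) in RO-3066 and 1.65 (1.44 to 1.88) in DMSO. Its transcripts were unevenly spread: the 10 cells with the most held 49.3% of all Cdkn1a UMIs of the 170 low-proliferation cells of RO-3066 and 21.8% of those of the 580 in DMSO.

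The label calls the cells non-cycling, and some genes that license and copy DNA do not bear that out for all of them. Mcm6, a subunit of the replicative helicase loaded in G1, was at 228 CPM in low-proliferation cells of RO-3066 against 210 CPM in its other cells, and at 212 CPM against 188 CPM in other cells of DMSO. Mcm2 of the same helicase had 102 CPM against 97.6 CPM in other cells of RO-3066 and 90.1 CPM against 81.0 CPM in other cells of DMSO. Ccne2, a cyclin of the G1 to S step, had 31.7 CPM against 32.7 CPM in other cells of RO-3066 and 57.3 CPM against 64.2 CPM in other cells of DMSO. Pcna, the sliding clamp of DNA polymerases, had 174 CPM against 234 CPM in other cells of RO-3066 and 206 CPM against 242 CPM in other cells of DMSO. Of the 46 S phase genes, 13 were at least 1.5-fold lower and 1 higher in each library. Mcm10, Cdc45, Dbf4 and Clspn, other genes of replication, were at least 2-fold lower in both. With the line of the rule at 100 CPM, Mcm2 and Mcm6 had log2 ratios of -0.33 and -0.35 in RO-3066, and -0.03 and 0.07 in DMSO. The G2 and M phase list summed to 3047 CPM against 8324 CPM in other cells of RO-3066. In DMSO it summed to 4342 CPM against 9881 CPM. That list was thus reduced, while Mcm2 and Mcm6 were near the level of the other cells at 200 CPM. So the cells are called here by their rule, and whether they rest in G0 or pass through G1 was not tested. Several of these genes, like others not taken by the naming rule, were chosen after their values were seen.

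Within the low-proliferation cells the fewest transcripts of the 4 genes went with the fewest of DNA replication. At 0 to 50 CPM of the 4 genes (48 cells of RO-3066 and 135 of DMSO) the S phase list summed to 2761 CPM in RO-3066 and 3541 CPM in DMSO. At 150 to 200 CPM it summed to 5555 CPM in RO-3066 and 5515 CPM in DMSO. Procr, the endothelial protein C receptor that marks stem cells (chromosome 2, 155751117 to 155755471), was at 36.5 CPM in the lowest bin of RO-3066 and at 10.4 CPM in the 150 to 200 bin, and in DMSO at 24.9 and 9.45 CPM in those bins. Hlf, a transcription factor of stem cells, was at 302 CPM in the lowest bin and 202 CPM in the 150 to 200 bin of RO-3066, and at 242 and 114 CPM in those of DMSO. Median UMIs per cell moved along: they were 16646.5 in the lowest bin and 25188 in the 150 to 200 bin of RO-3066, and 12306 and 17730.5 in DMSO. The part of UMIs per cell in these gradients was not tested.

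**Figure D2:**
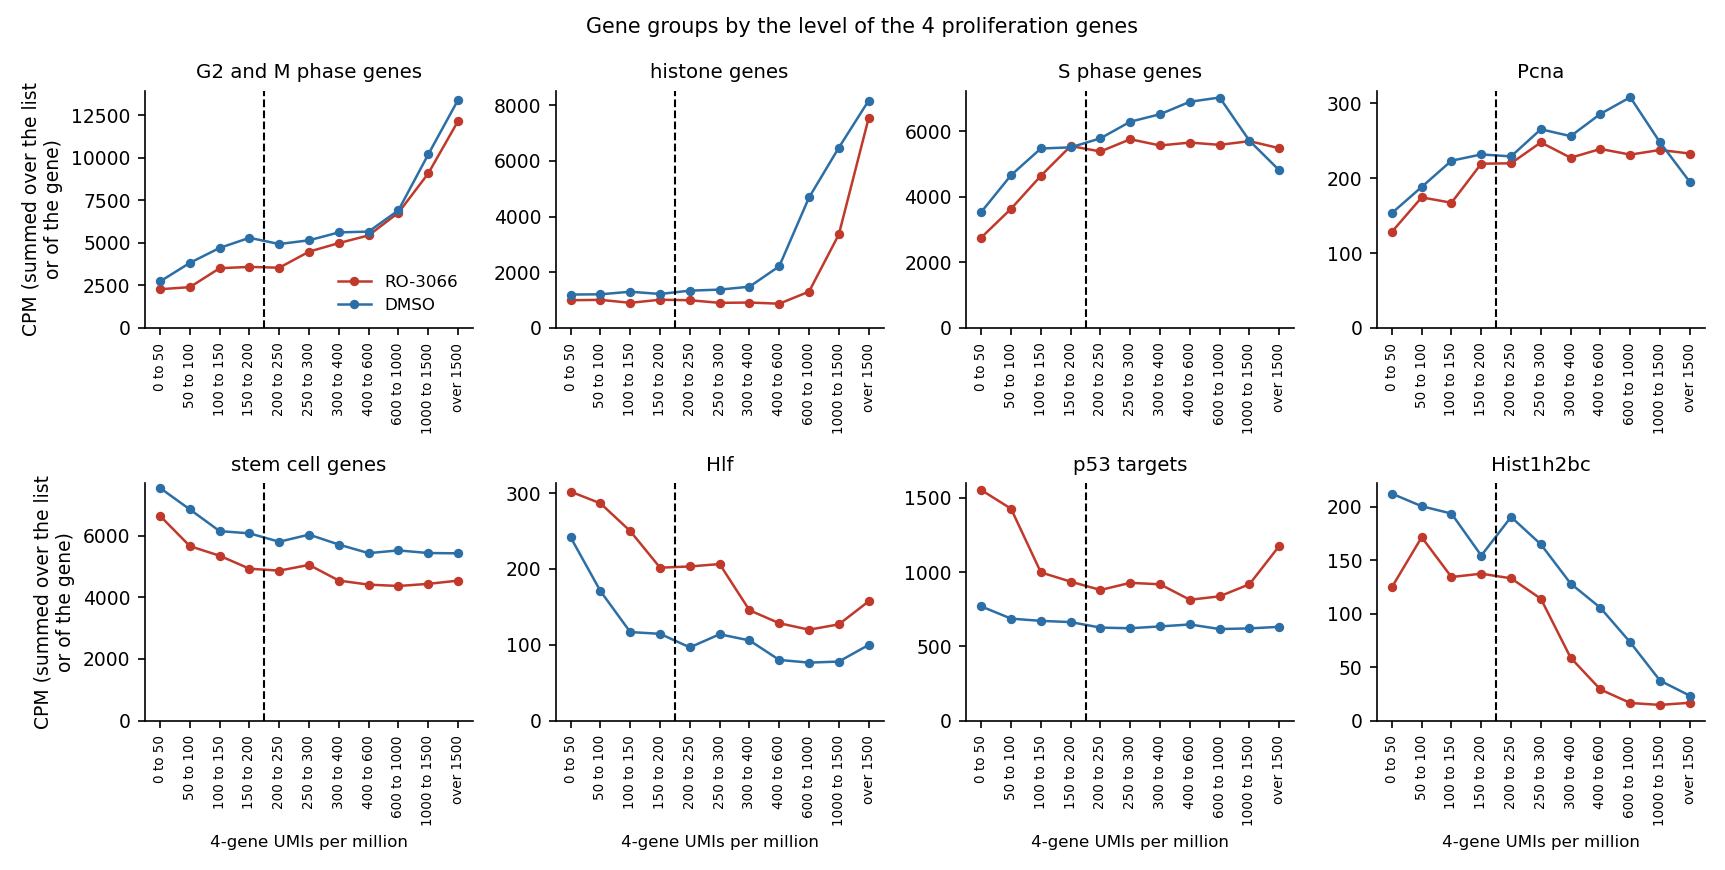
Level (CPM, summed over a list or of 1 gene) in cells binned by the CPM of the 4 rule genes, for RO-3066 (red) and DMSO (blue), with low-proliferation cells left of the dashed line. From the lowest bin up to 150 to 200 CPM of the rule genes the S phase list runs from 2761 to 5555 CPM in RO-3066 and from 3541 to 5515 CPM in DMSO, while Hlf runs down.

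Set against the other cells, few genes were higher and many lower, and the lower ones were mostly the same in both libraries. Among genes of at least 20 CPM in either class, 163 of 5818 were at least 2-fold lower in low-proliferation cells of RO-3066 (2.8% of those compared) and 23 at least 2-fold higher (0.395%). In DMSO 153 of 5657 were lower (2.7%) and 8 higher (0.141%). Lower in both libraries were 132 genes, which are 81.0% of the RO-3066 genes and 86.3% of the DMSO genes. They included 42 genes of the G2 and M phase list and 21 histone genes. The 4 rule genes, low by construction, are among the 132, and 128 remain without them. Both libraries were split by the same 4 genes, so this overlap is a description and not a check. Higher in both were 3 genes, Hist1h2bc, Ltb and Ypel3, which are 13.04% of the RO-3066 genes and 37.5% of the DMSO genes. All 23 and 8 higher genes, and all 163 and 153 lower ones, had a ratio of the same sign in the other library.

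**Figure D3:**
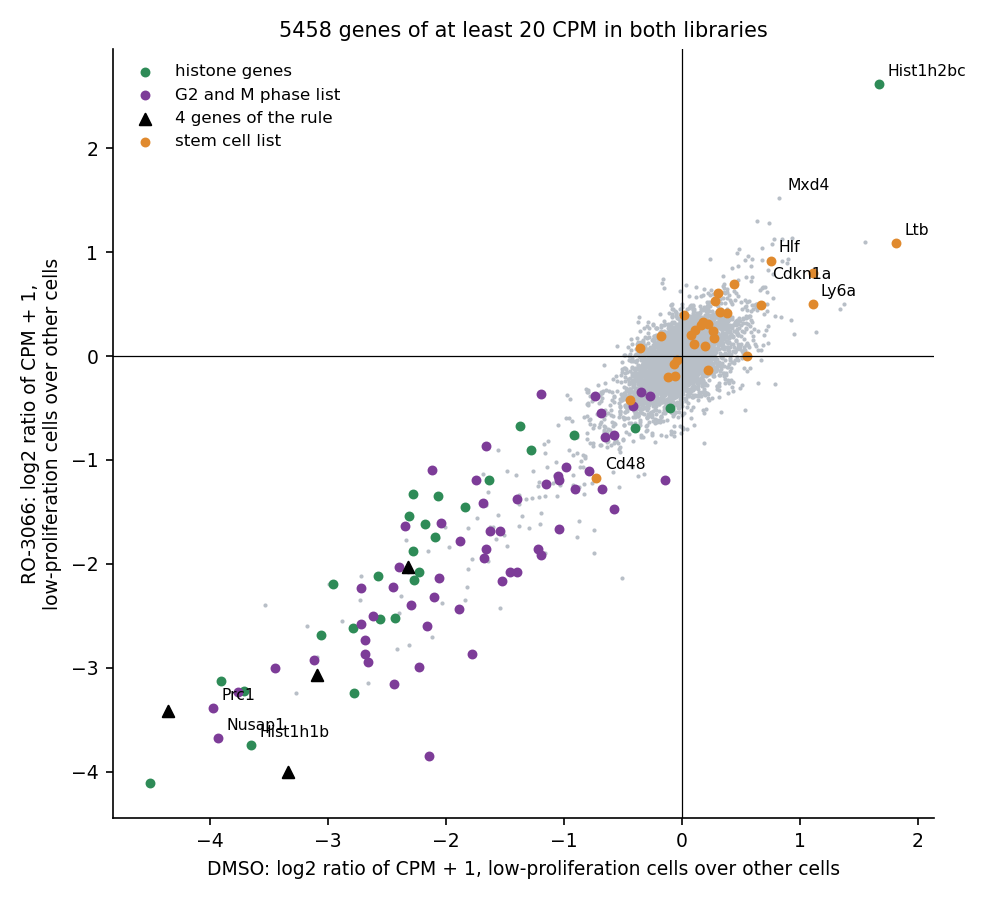
Each of 5458 genes of at least 20 CPM in both libraries, by the log2 ratio of CPM + 1 of low-proliferation cells over other cells, in DMSO on the x axis and RO-3066 on the y axis. G2 and M phase genes (purple) and histone genes (green) fill the lower left, apart from Hist1h2bc at the upper right, where stem cell genes such as Hlf and Ltb (orange) lie too.

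Many genes of mitosis were far below the other cells. Among genes of at least 50 CPM, the 12 lowest in both libraries outside the histones and the rule genes were Nusap1, Prc1, Esco2, Aurkb, Kif11, Ube2c, Spc25, Ckap2l, Cenpf, Pclaf, Incenp and Knl1. Nusap1, which bundles spindle microtubules (chromosome 2, 119618298 to 119651244), had 10.9 CPM in low-proliferation cells of RO-3066 and 152 CPM in its other cells, and 11.0 and 182 CPM in DMSO. That is 0.0721-fold (0.0512 to 0.0986) in RO-3066 and 0.0602-fold (0.0490 to 0.0733) in DMSO. Aurkb, the kinase of the chromosomal passenger complex, had 5.89 CPM against 63.9 CPM in other cells of RO-3066 and 5.04 CPM against 80.9 CPM in other cells of DMSO. Incenp, the scaffold of that complex, had 18.5 CPM against 98.03 CPM in other cells of RO-3066 and 16.1 CPM against 112 CPM in other cells of DMSO. Knl1, an outer kinetochore protein, had 19.1 CPM against 98.3 CPM in other cells of RO-3066 and 19.6 CPM against 106 CPM in other cells of DMSO. Few Nusap1 UMIs remained in low-proliferation cells, 39 in RO-3066 and 100 in DMSO. The 10 highest of these cells had 43.6% of them in RO-3066 and 25% in DMSO. With so few UMIs, these shares cannot tell whether the transcripts were unevenly spread.

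Across lists, a gene was counted as higher or lower at 1.5-fold among genes of at least 5 CPM. By that rule 3.66% of all 9574 genes were higher and 5.73% lower in low-proliferation cells of RO-3066, and 3.07% higher and 4.59% lower of 9308 in DMSO. The median log2 ratio over all of them was -0.01 in both libraries. Of 59 G2 and M phase genes, 52 were lower and 0 higher in RO-3066, with a median log2 ratio of -1.86. In DMSO 53 were lower and 0 higher, with a median of -1.67. The 46 S phase genes had 13 lower and 1 higher in each library, with medians of -0.41 in RO-3066 and -0.18 in DMSO. With the line of the rule at 400 CPM the DMSO median was 0.039. Tyms, which makes thymidylate, had 47.4 CPM against 109 CPM in other cells of RO-3066 and 77.5 CPM against 164 CPM in other cells of DMSO.

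Most histone genes were lower, and Hist1h2bc was far higher in both libraries. Their replication-linked messages mostly end without the poly(A) tail that 3' libraries capture, so that counts show a part of them, and near-identical copies can share reads. Of 42 measured in RO-3066, 37 were lower and 2 higher (median log2 -1.74), and of 49 in DMSO, 45 were lower and 1 higher (median -2.09). Hist1h1b, a linker histone, had 48.6 CPM in low-proliferation cells of RO-3066 against 663 CPM in its other cells, and 134 CPM against 1696 CPM in other cells of DMSO. Hist1h2bc, which encodes a histone H2B (chromosome 13, 23684199 to 23692908), was at 140 CPM against 21.9 CPM in RO-3066, 6.37-fold higher (5.74 to 7.05). In DMSO it was at 185 CPM against 57.4 CPM, 3.22-fold higher (3.05 to 3.41). Along the bins of the 4 rule genes it was at 125 CPM in the lowest bin and 16.6 CPM in the highest of RO-3066, and at 212 and 23.2 CPM in DMSO, against the course of the histone list.

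Cyclins and their kinases differed by step. Ccnd1, a D cyclin of G1, had 32.0 CPM against 21.7 CPM in other cells of RO-3066 and 35.2 CPM against 24.0 CPM in other cells of DMSO. Ccnd2, another, had 390 CPM against 285 CPM in other cells of RO-3066 and 305 CPM against 284 CPM in other cells of DMSO. Their partner Cdk6 was lower, with 85.6 CPM against 137 CPM in other cells of RO-3066 and 85.2 CPM against 135 CPM in other cells of DMSO. Ccna2, the cyclin of S and G2, had 10.1 CPM against 79.9 CPM in other cells of RO-3066 and 31.5 CPM against 110 CPM in other cells of DMSO. Over the list, 16 of 30 were lower in RO-3066 and 11 of 29 in DMSO, with 0 higher in either. The list of Cdk inhibitors ran both ways, with 1 of 6 higher and 1 lower in RO-3066 (median log2 -0.09) and 1 of 6 higher and 2 lower in DMSO (median -0.22). Cdkn2d (p19), an inhibitor of Cdk4 and Cdk6, had 41.0 CPM against 49.99 CPM in other cells of RO-3066 and 35.5 CPM against 58.6 CPM in other cells of DMSO. Cdkn3, a phosphatase that acts on Cdks, had 9.54 CPM against 45.3 CPM in other cells of RO-3066 and 35.8 CPM against 51.3 CPM in other cells of DMSO. Cdkn1b (p27) had 45.2 CPM against 40.4 CPM in other cells of RO-3066 and 47.1 CPM against 45.2 CPM in other cells of DMSO. Cdkn1c (p57) had 19.1 CPM against 17.8 CPM in other cells of RO-3066 and 17.6 CPM against 12.5 CPM in other cells of DMSO. With intervals of 0.949 to 1.31 for Cdkn1b and 0.825 to 1.37 for Cdkn1c in RO-3066, a difference there was not detectable at this depth.

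**Figure D4:**
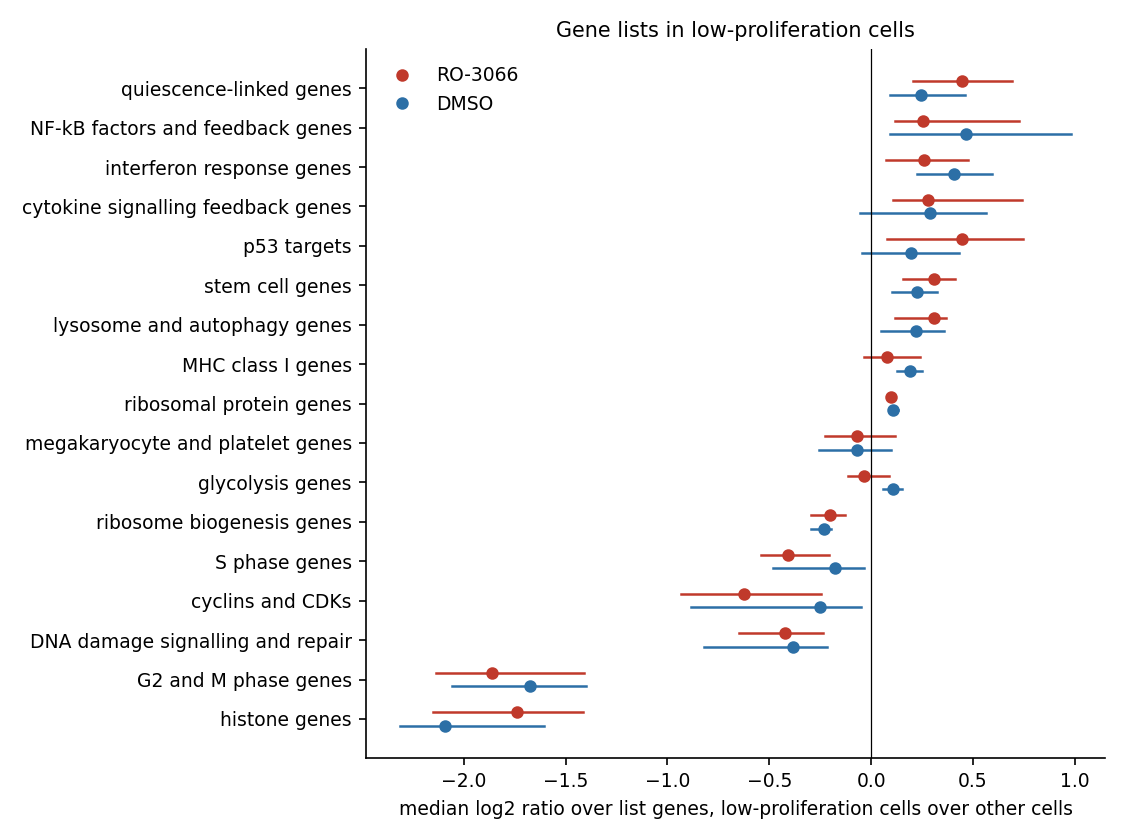
Median log2 ratio of CPM + 1 over the genes of each list, low-proliferation cells over other cells, with RO-3066 (red) above DMSO (blue) and lines giving the exact 95% binomial interval of a median over genes. The G2 and M phase list (-1.86 and -1.67) and the histone list (-1.74 and -2.09) lie far left, and the quiescence-linked list (0.45 and 0.25) lies to the right of 0.

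On the other side, the 12 highest in both libraries among genes of at least 50 CPM, under the same exclusions, were Ier3, Mxd4, Pdzk1ip1, Krt18, Hlf, Jund, Socs2, Pim1, Slfn2, Sqstm1, Traf3ip3 and Ndfip1. Hlf (chromosome 11, 90336536 to 90390895) had 255 CPM in low-proliferation cells of RO-3066 against 135 CPM in its other cells, and 151 CPM against 89.2 CPM in other cells of DMSO. Those are ratios of 1.89 (1.77 to 2.03) in RO-3066 and 1.69 (1.60 to 1.79) in DMSO. Mxd4, which pairs with Max and opposes Myc (chromosome 5, 34173883 to 34187720), had 115 CPM against 39.6 CPM in other cells of RO-3066 and 52.4 CPM against 29.1 CPM in other cells of DMSO. Socs2, which cytokine signalling induces and which dampens it, had 106 CPM against 54.9 CPM in other cells of RO-3066 and 105 CPM against 69.5 CPM in other cells of DMSO. Pim1, a kinase gene that cytokines also induce, had 294 CPM against 161 CPM in other cells of RO-3066 and 235 CPM against 156 CPM in other cells of DMSO. Sqstm1, an autophagy receptor, had 101 CPM against 59.5 CPM in other cells of RO-3066 and 52.1 CPM against 35.4 CPM in other cells of DMSO.

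Of the stem cell list, 8 of 40 genes were higher and 1 lower in RO-3066 (median log2 0.31), and 7 of 38 higher and 1 lower in DMSO (median 0.22). Procr had 18.2 CPM against 7.13 CPM in other cells of RO-3066 and 16.0 CPM against 6.72 CPM in other cells of DMSO. Ltb, the cytokine lymphotoxin beta (chromosome 17, 35194439 to 35196320), had 51.9 CPM against 24.0 CPM in other cells of RO-3066 and 45.0 CPM against 12.1 CPM in other cells of DMSO. Ly6a, the stem cell antigen Sca-1, had 37.6 CPM against 26.2 CPM in other cells of RO-3066 and 67.0 CPM against 30.5 CPM in other cells of DMSO. Cd48, a surface protein of progenitors that have left the stem cell state, was the 1 lower in both, with 9.54 CPM against 22.7 CPM in other cells of RO-3066 and 41.2 CPM against 68.7 CPM in other cells of DMSO. Slamf1, the marker CD150, had 8.14 CPM against 10.9 CPM in other cells of RO-3066 and 10.6 CPM against 14.8 CPM in other cells of DMSO, and Cd34 had 80.3 CPM against 87.9 CPM in other cells of RO-3066 and 115 CPM against 98.1 CPM in other cells of DMSO. The list thus held genes on both sides. Of 26 quiescence-linked genes 11 were higher and 0 lower in RO-3066 (median 0.45), and of 23 in DMSO 3 were higher and 0 lower (median 0.25). Tsc22d3, a glucocorticoid-induced gene, had 85.3 CPM against 44.4 CPM in other cells of RO-3066 and 41.8 CPM against 28.5 CPM in other cells of DMSO.

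UMIs per cell moved with these results. The low-proliferation cells had a median of 21292.5 UMIs against 27912 in the other cells of RO-3066, and of 15842 against 23679 in DMSO. With the other cells weighted to the same distribution of UMIs, the stem cell median was 0.14 in RO-3066 and 0.04 in DMSO, and the quiescence-linked median 0.29 in RO-3066 and 0.04 in DMSO. The log2 ratio of Hlf was then 0.48 in RO-3066 and -0.05 in DMSO, that of Procr 0.83 in RO-3066 and 0.11 in DMSO. That of Ly6a was -0.01 in RO-3066 and 0.06 in DMSO. That of Mxd4 was 1.37 in RO-3066 and 0.40 in DMSO, and that of Hist1h2bc 2.19 in RO-3066 and 0.61 in DMSO, where it was no longer 2-fold. Genes at least 2-fold higher then numbered 13 in RO-3066 and 0 in DMSO, and lower ones 91 in DMSO, with a G2 and M phase median of -1.04 there. In DMSO the weighting also moves the comparison toward other cells near the line. Its 169 other cells below 15000 UMIs take 40.5% of the weight. Their median was 369 CPM of the 4 genes, against 1149 CPM in all other cells of DMSO. In RO-3066 the 270 such cells take 21.2% of the weight. Their median was 1435 CPM, against 1029 CPM in all other cells of RO-3066, so they lay further from the line. So the higher level of stem cell and quiescence-linked genes in DMSO cannot be told apart here from fewer UMIs per cell. In RO-3066 the weighted stem cell median lay below the unweighted interval over genes (0.157 to 0.411). The weighted quiescence-linked median there stayed within its interval (0.207 to 0.691). How much of the stem cell level in RO-3066 goes with UMIs per cell was not tested.

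Among the remaining lists, 6 of 17 genes of NF-kB factors and feedback were higher in RO-3066 and 7 of 15 in DMSO, with 0 lower in either (medians 0.26 in RO-3066 and 0.46 in DMSO). Ccl4, a chemokine, had 25.3 CPM against 8.26 CPM in other cells of RO-3066 and 13.6 CPM against 3.28 CPM in other cells of DMSO. Interferon response genes had 4 of 24 higher in RO-3066 and 7 of 24 in DMSO, with 0 lower (medians 0.26 in RO-3066 and 0.41 in DMSO). Irf1, a transcription factor of that response, had 33.1 CPM against 19.1 CPM in other cells of RO-3066 and 25.3 CPM against 16.4 CPM in other cells of DMSO. Under the weighting by UMIs the medians of NF-kB genes were 0.26 in RO-3066 and 0.11 in DMSO, and those of interferon response genes 0.063 in RO-3066 and 0.050 in DMSO. Of 34 genes of DNA damage signalling and repair, 13 were lower in RO-3066 and 11 in DMSO, with 0 higher. They included Brca1, of recombination repair, at 14.03 CPM against 39.6 CPM in other cells of RO-3066 and 9.86 CPM against 33.4 CPM in other cells of DMSO. Ribosome biogenesis genes had medians of -0.20 in RO-3066 and -0.23 in DMSO with 0 of 38 past 1.5-fold, and ribosomal protein genes medians of 0.10 in RO-3066 and 0.11 in DMSO with 0 of 87 past it. Weighted by UMIs, the ribosome biogenesis medians were -0.15 in RO-3066 and -0.0008 in DMSO. Those of ribosomal protein genes were 0.12 in RO-3066 and 0.030 in DMSO.

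Markers of other blood cells were near the level of the other cells in some lists and higher in others. The megakaryocyte and platelet list summed to 3512 CPM in low-proliferation cells against 3993 CPM in other cells of RO-3066, and to 3276 CPM against 3754 CPM in other cells of DMSO. Part of this list, Pf4, was used to keep cells. The erythroid list summed to 1674 CPM against 1582 CPM in other cells of RO-3066 and 1148 CPM against 917 CPM in other cells of DMSO, mostly Hbb-bt and Car2, with 3 of its 21 genes undetected in both classes of RO-3066 and 4 in DMSO. Neutrophil and monocyte genes summed to 327 CPM against 351 CPM in other cells of RO-3066 and 378 CPM against 318 CPM in other cells of DMSO. Lymphoid genes were low, at 39.9 CPM against 40.4 CPM in other cells of RO-3066 and 43.7 CPM against 29.3 CPM in other cells of DMSO. Kit, the receptor of stem and progenitor cells that mast cells carry too, had 174 CPM against 147 CPM in other cells of RO-3066 and 110 CPM against 91.6 CPM in other cells of DMSO. Mecom, a stem cell transcription factor, had 144 CPM against 114 CPM in other cells of RO-3066 and 109 CPM against 96.5 CPM in other cells of DMSO. Of the markers of the labelled cell type, Kit, Mecom and Hlf were thus detected in both libraries, while Slamf1 was at most 14.8 CPM in any class and Cd48, which sorted stem cells lack, was detected in all.

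The promoters of the 132 genes lower in both libraries held the elements introduced above more often than promoters at large. Of 91 with a RefSeq promoter, 25 (27.5%) had TTTGAA on either strand, against 10.7% of 4414 promoters among the 5458 genes compared in both libraries. CCAAT was in 61 (67.0%) against 36.6%, and both motifs in 21 (23.1%) against 4.19%. The E2F-type motifs TTTGGCGC or TTTCCCGC were in 4 (4.40%) against 3.602%. Without the 4 rule genes the shares were 25.3% for TTTGAA, 65.5% for CCAAT and 20.7% for both, of 87. No test was made of these shares, and 250 bases leave out sites further away or past the start.

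Low-proliferation cells differed among themselves. To compare cells at 1 depth, each was thinned to 5000 UMIs, and its list level set against the 95th percentile of the other cells of its library. Of the 170 in RO-3066, 30 (17.6%, 12.2 to 24.2) lay above that level of the stem cell list, where 4.60% of the other cells did. Of the 580 in DMSO, 87 (15.0%, 12.2 to 18.2) did, against 4.85%. Without thinning the shares were 18.8% in RO-3066 and 19.1% in DMSO. Above the 99th percentile, thinned, lay 2.35% (0.645 to 5.91) in RO-3066 against 0.989% of its other cells. In DMSO 5.69% (3.95 to 7.90) did, against 0.975%. At that percentile without thinning, the shares were 1.18% against 1.03% in RO-3066 and 7.24% against 1% in DMSO. So in RO-3066 a difference from other cells was not detectable at the 99th percentile. Thinning does not match cells by the UMIs they held, so the limits given above for stem cell genes in both libraries hold here too. From the lower to the upper quartile, they held 42 to 74 stem cell list UMIs per 10000 in RO-3066, against 36 to 56 in its other cells. In DMSO the quartiles were 50 and 82, against 42 and 66, so the ranges overlapped in both libraries. High levels of S phase genes were rare, at 1.18% in RO-3066 and 0.345% in DMSO, and so were those of megakaryocyte genes, at 1.18% in RO-3066 and 1.21% in DMSO. High erythroid levels were found in 2.94% (0.962 to 6.73) of low-proliferation cells against 4.86% of other cells of RO-3066. In DMSO they were found in 8.45% (6.32 to 11.02) against 4.83% of other cells. High neutrophil and monocyte levels were found in 1 cell of RO-3066, 0.588% (0.0149 to 3.23) against 3.01% of other cells. In DMSO they were found in 5.17% (3.52 to 7.30) against 2.43% of other cells. Without thinning these were 5.29% against 5.03% in RO-3066 and 10.3% against 5% in DMSO. The genes that varied most from cell to cell, by variance over mean of the thinned counts, were Hbb-bt, Malat1, Ifitm1, H2afz, Gm42418, S100a4, Slfn2, S100a6, Ftl1 and Ncl. Hbb-bt, a beta globin, had 10.3 in RO-3066, where the median gene had 1.07, and 14.7 in DMSO, where it had 1.06. Its 10 highest cells held 34.8% of its UMIs in RO-3066 and 18.4% in DMSO.

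Between treatments, targets of the transcription factor p53 were the list furthest up in low-proliferation cells of RO-3066. Of genes of at least 20 CPM in either library, 50 of 5711 were at least 2-fold higher in RO-3066 (0.876%) and 53 at least 2-fold lower (0.928%). In the other cells 20 of 5738 were higher (0.349%) and 20 lower (0.349%), from summed counts that are deeper. Of 27 p53 targets, 20 were at least 1.5-fold higher and 0 lower, where 8.09% of all genes were higher and 5.14% lower. Their median log2 ratio was 1.09, against 0.02 over all genes, and in the other cells it was 0.53, with 11 of 23 higher where 4.11% of all genes were higher and 1.81% lower. Gene by gene, the ratio was larger in low-proliferation cells than in other cells for 20 of 27, by a median of 0.32, a difference that was not tested. The other cells were not alike in this. In those above 1500 CPM of the 4 rule genes, the p53 target list summed to 1176 CPM in RO-3066 and 631 CPM in DMSO. In low-proliferation cells it summed to 1185 CPM in RO-3066 and 690 CPM in DMSO. A difference of that size was thus not particular to low-proliferation cells.

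Gdf15, a secreted stress cytokine (chromosome 8, 70629393 to 70632456), was at 55.8 CPM in low-proliferation cells of RO-3066 against 4.27 CPM in those of DMSO, 13.1-fold higher (9.23 to 18.9). In the other cells it was at 19.8 CPM in RO-3066 against 1.98 CPM in DMSO, 9.99-fold higher (8.59 to 11.7). Bbc3, the death effector PUMA, had 57.3 CPM in RO-3066 against 16.9 CPM in DMSO in low-proliferation cells and 23.6 CPM in RO-3066 against 10.5 CPM in DMSO in other cells. Btg2, an antiproliferative gene, had 43.8 CPM in RO-3066 against 10.4 CPM in DMSO in low-proliferation cells and 19.1 CPM in RO-3066 against 9.17 CPM in DMSO in other cells. Cdkn1a was 2.99-fold higher (2.52 to 3.54) in low-proliferation cells and 3.09-fold higher (2.92 to 3.28) in other cells. Mdm2, which degrades p53, had 31.7 CPM in low-proliferation cells of RO-3066 against 19.9 CPM in those of DMSO. Sesn1, a stress sensor of the list, had 26.7 CPM in low-proliferation cells of RO-3066 against 28.5 CPM in those of DMSO. A few cells carried much of the signal. The 17 cells with the highest share of p53 target UMIs held 31.6% of those UMIs in low-proliferation cells of RO-3066, and the 58 highest held 19.7% in DMSO. Without the 10% of cells highest in p53 targets in each class and library, chosen after the data were seen, the median ratio was 0.73, and with DMSO low-proliferation cells weighted to the UMIs of those of RO-3066 it was 1.001.

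**Figure D5:**
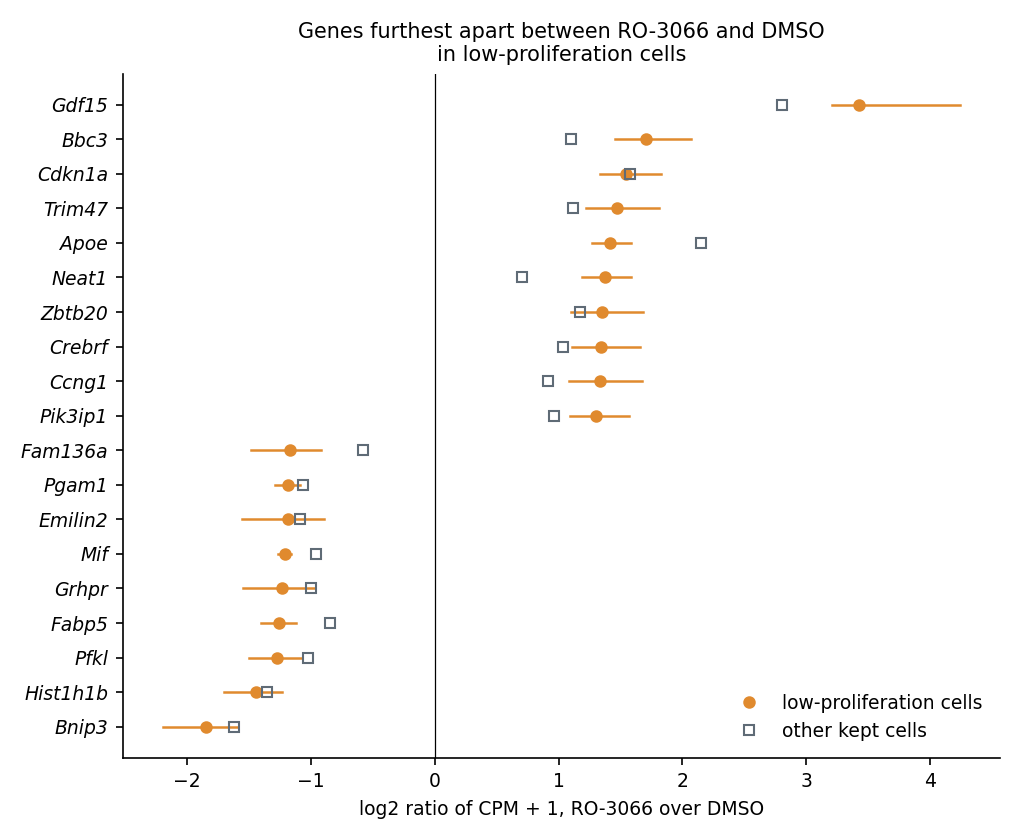
Log2 ratio of CPM + 1, RO-3066 over DMSO, for the 10 highest and 9 of the 10 lowest named genes in low-proliferation cells (orange, with 95% counting intervals) and the same genes in other kept cells (open squares). Gdf15 lies furthest right, at 3.43 in low-proliferation cells and 2.80 in other cells, and Bnip3 furthest left, at -1.85 and -1.62.

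Among genes of at least 50 CPM, those furthest up in RO-3066 after Gdf15, Bbc3 and Cdkn1a were Trim47, Apoe, Neat1, Zbtb20, Crebrf, Ccng1 and Pik3ip1. Apoe, a lipid carrier, had 190 CPM in RO-3066 against 70.7 CPM in DMSO in low-proliferation cells and 164 CPM in RO-3066 against 36.1 CPM in DMSO in other cells. Neat1, a long noncoding RNA that builds nuclear paraspeckles, had 120 CPM in RO-3066 against 45.8 CPM in DMSO in low-proliferation cells and 48.1 CPM in RO-3066 against 29.1 CPM in DMSO in other cells. Pik3ip1, an inhibitor of PI3-kinase, had 80.3 CPM in RO-3066 against 31.9 CPM in DMSO in low-proliferation cells and 36.3 CPM in RO-3066 against 18.1 CPM in DMSO in other cells. Of 26 quiescence-linked genes 12 were higher in RO-3066 and 0 lower in low-proliferation cells, with a median log2 ratio of 0.53, against 0.28 in other cells. The stem cell list had a median of 0.26 with 8 of 40 higher and 4 lower, while its summed level was 5583 CPM in RO-3066 and 6539 CPM in DMSO, since the most abundant member, Ifitm1, had 1061 CPM in RO-3066 and 2231 CPM in DMSO. Cd48 had 9.54 CPM in RO-3066 and 41.2 CPM in DMSO. The megakaryocyte and platelet list had 11 of 27 higher and 1 lower, with a median of 0.46 in low-proliferation cells and 0.49 in other cells; under the weighting by UMIs the first was 0.14.

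Genes of sugar and sterol metabolism were lower in RO-3066. Bnip3, a receptor for the removal of mitochondria (chromosome 7, 138890836 to 138909519), had 28.3 CPM in low-proliferation cells of RO-3066 against 105 CPM in those of DMSO, 0.270-fold (0.218 to 0.332), and 27.0 CPM in RO-3066 against 85.0 CPM in DMSO in other cells. Of 20 glycolysis genes 12 were lower and 0 higher, with a median log2 ratio of -0.74, and in the other cells 12 of 19 were lower with a median of -0.79. Pfkl, a phosphofructokinase, had 60.3 CPM in RO-3066 against 147 CPM in DMSO in low-proliferation cells and 65.3 CPM in RO-3066 against 134 CPM in DMSO in other cells. Pgam1, the phosphoglycerate mutase, had 269 CPM in RO-3066 against 613 CPM in DMSO in low-proliferation cells and 279 CPM in RO-3066 against 585 CPM in DMSO in other cells. Cholesterol synthesis genes had 11 of 22 lower and 0 higher in low-proliferation cells (median -0.53) and 1 of 22 lower in other cells (median -0.17). Hmgcs1, an early enzyme of that pathway, had 90.6 CPM in low-proliferation cells of RO-3066 against 174 CPM in those of DMSO, and 99.5 CPM in RO-3066 against 153 CPM in DMSO in other cells. Fdps, a later one, had 222 CPM in RO-3066 against 423 CPM in DMSO in low-proliferation cells and 291 CPM in RO-3066 against 379 CPM in DMSO in other cells. The ratio was lower in low-proliferation cells than in other cells for 19 of these 22 genes, by a median of -0.32, which was not tested. Others among the 10 furthest down were Hist1h1b, Fabp5, Grhpr, Mif, Emilin2 and Fam136a. Mitotic genes, scarce in both, had a median of -0.28 with 16 of 57 lower and 4 higher. That median was 0.053 with members called on thinned cells. The UMIs of the 4 rule genes summed to 106 CPM in RO-3066 and 106.5 CPM in DMSO. Every low-proliferation cell had to lie below the line of the rule in these genes. Their sums are thus bounded by construction and cannot tell whether the treatments were alike in them.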

How the data were processed

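Transcripts were counted in single mouse stem cells of 2 libraries, 1 per treatment, grouped by the treatment in the labels. The authors deposited raw UMI counts per gene and barcode. The genome build is mm10 and the counting tool Cell Ranger 5.0.1, per the submitters' processing notes, while the matrix headers name version 7.1.0; the version that made the counts, the annotation and the handling of intron reads were not given in the sources used here. Of 32285 gene identifiers, 32158 were found in GENCODE vM21 (mm10), which gave the coordinates; where identifiers shared a symbol, 40 were named by identifier.

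The member cells and the 30 gene lists were chosen with earlier results of these data known. UMIs were summed over the cells of each class in each library and expressed as CPM. Ratios are log2 of CPM plus a pseudocount of 1. Genes were called at 2-fold with at least 20 CPM in either class, lists at 1.5-fold with at least 5 CPM. Fold intervals are exact conditional ones for a ratio of Poisson counts, at 95%, and those of list medians exact binomial intervals over genes. A count of 0 allows up to 3 UMIs, which is 0.842 CPM in low-proliferation cells of RO-3066 and 0.329 CPM in those of DMSO. Doublets were scored by simulated doublets among 50 neighbours, called at 0.8% per 1000 barcodes and left in.

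Named genes were the 5 markers given (Mki67, Top2a, Cdk1, Rrm2, Cdkn1a), the 12 highest and 12 lowest of low-proliferation over other cells in both libraries and the 10 highest and 10 lowest of RO-3066 over DMSO, all of at least 50 CPM, and 3 of each list of at least 20 CPM. Left out of these rankings were unnamed models and mitochondrial, ribosomal protein and, except between treatments, histone genes. The 10 most variable genes of at least 50 CPM in both libraries were named too; Hist1h2bc, Ltb and Ypel3 and all others were chosen after their values were seen. Results of a few genes that the rule names are not reported here. The calculation was tested on simulated data. The alternatives tried were other limits of the rule, thinning, doublets left out, no Pf4 limit, other pseudocounts and minimum levels, and weighting by UMIs. Python 3.11.15, numpy 2.4.6, scipy 1.17.1, pandas 2.3.3 and scikit-learn 1.9.0 were used.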

Additional observations from a re-analysis of the deposited data

Results flagged for a closer look

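Among the named genes outside the rule, counting those whose 2 counting intervals both exclude a ratio of 1, for 5 the ratio of RO-3066 over DMSO had 1 sign in low-proliferation cells and the other in other kept cells, and for 2 the ratio of low-proliferation over other cells had opposite signs in the libraries. With 1 library per treatment, none of these differences was tested. The intervals cover counting error only and leave out the spread between cells. In RO-3066 the 10 highest low-proliferation cells held 47.2% of the Cenpf UMIs, 43.75% of Nkg7 and 40.9% of Prc1. They held 24.9% for Slfn2 and 14.4% for S100a4. Slfn2, linked to quiescence of T cells in mice, had a log2 ratio of RO-3066 over DMSO of 0.32 in low-proliferation cells and -0.08 in other cells, a difference of 0.40. Prc1, which bundles microtubules of the central spindle, had 0.43 and -0.16 in these classes, a difference of 0.59, from low levels of 18.5 CPM in RO-3066 and 13.5 CPM in DMSO low-proliferation cells. Cenpf, a kinetochore protein, had -0.44 and 0.28, a difference of -0.72. Nkg7, a granule protein of cytotoxic and myeloid cells, had -0.73 and 0.08, a difference of -0.81. The calcium-binding protein gene S100a4 had -0.15 and 0.06, a difference of -0.20. With DMSO low-proliferation cells weighted to the UMIs of those of RO-3066, the S100a4 ratio in low-proliferation cells was 0.17. Those of Slfn2, Prc1, Cenpf and Nkg7 kept their sign, at 0.22, 0.20, -0.51 and -0.90. Mif, a cytokine, had a log2 ratio of low-proliferation over other cells of -0.19 in RO-3066 and 0.07 in DMSO, a difference of -0.26. Hbb-bt had -0.12 in RO-3066 and 0.58 in DMSO, a difference of -0.70. With other cells weighted to the UMIs of low-proliferation cells, Hbb-bt had -0.38 in RO-3066 and -0.30 in DMSO, and so no longer opposite signs. Mif then had -0.10 in RO-3066 and 0.07 in DMSO. As given above, few cells held much of the Hbb-bt signal.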

How the results depend on the processing

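No named gene past 2-fold changed sign under the alternatives tried, while 2 of the list medians among the main results did, those of S phase genes in DMSO and of G2 and M phase genes between treatments. Medians near 0 of other lists did too, such as that of MHC class I genes under the weighting by UMIs, at -0.051 in RO-3066 and -0.039 in DMSO. Of 437 values recomputed for the main results, 368 stayed within their range and 69 moved, and the cause was not tested. The range was the counting interval for shares, the interval over genes for list medians and 1.5 times for numbers of genes. The interval over genes is a spread between genes and not a counting error. The limit of the rule moved many of them. At 100 CPM the share of low-proliferation cells was 3.17% in RO-3066 and 5.83% in DMSO. Over other cells, 65 genes were 2-fold higher in RO-3066 and 41 in DMSO. The RO-3066 medians were -0.82 for S phase, -2.49 for G2 and M phase, 0.75 for p53 targets and 0.41 for stem cell genes, and in DMSO -2.10 for G2 and M phase and 0.34 for stem cell genes. Between treatments 84 genes were higher and 86 lower. At 400 CPM the shares were 13.2% in RO-3066 and 26.0% in DMSO, with 7 genes higher in RO-3066 and 5 in DMSO. Medians were -0.14 (S phase), -1.35 (G2 and M phase) and 0.094 (stem cell) in RO-3066 and 0.039 (S phase) in DMSO, and between treatments 32 genes were higher and the G2 and M phase median was 0.038.

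With members called on cells thinned to 5000 UMIs, the DMSO share was 10.3%, 8 genes were higher in RO-3066 with a G2 and M phase median of -1.22, and between treatments 33 were higher and 34 lower with a G2 and M phase median of 0.053. Without the Pf4 limit the DMSO share was 11.6%. Without an upper UMI limit, added after the data were seen, the RO-3066 share was 5.67% and 39 genes were higher there. With a pseudocount of 5 CPM, 15 genes were higher in RO-3066, histone medians were -1.27 in RO-3066 and -1.57 in DMSO, and 33 were higher between treatments. Without a minimum level, 109 were higher and 310 lower in RO-3066 (histone median -1.38), 60 and 249 in DMSO, and 250 and 188 between treatments, which compares more genes. At 50 CPM they were 11 and 82, 5 and 87, and 20 and 33, with medians between treatments of -0.53 (G2 and M phase) and 0.22 (megakaryocyte). With each cell thinned to 5000 UMIs, 36 genes were higher in RO-3066 and 18 in DMSO, and 110 higher and 86 lower between treatments.

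With other cells weighted to the UMIs of low-proliferation cells, 13 genes were higher and the stem cell median was 0.14 in RO-3066. In DMSO 0 were higher and 91 lower, with medians of -1.04 (G2 and M phase), 0.043 (quiescence-linked), 0.045 (stem cell) and -1.54 (histone). With DMSO low-proliferation cells weighted to those of RO-3066, 162 were higher and 112 lower, with medians of -0.51 (G2 and M phase) and 0.14 (megakaryocyte). High stem cell levels were found in 2.35% of RO-3066 and 5.69% of DMSO low-proliferation cells at the 99th percentile, and in 19.1% of DMSO without thinning. Leaving out likely doublets, a mitochondrial limit of 5%, at least 10000 UMIs, equal weight per cell and median-ratio scaling moved none of these values that far.

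No paired analysis was possible because each treatment has 1 library, nor was there a replicate to leave out. Low-proliferation cells of RO-3066 held 3563284 UMIs, the fewest of the classes compared, which limits the precision of genes of low level there.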

Other observations

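Other lists differed from list to list. Lysosome and autophagy genes had 4 of 32 at least 1.5-fold higher in low-proliferation cells of RO-3066 and 3 of 32 in those of DMSO, with 0 lower and median log2 ratios of 0.31 in RO-3066 and 0.22 in DMSO. Weighted by UMIs, these medians were 0.23 in RO-3066 and 0.030 in DMSO. Ctsl, a lysosomal protease, had 63.1 CPM against 46.2 CPM in other cells of RO-3066 and 72.1 CPM against 46.0 CPM in other cells of DMSO. MHC class I genes had medians of 0.08 in RO-3066 and 0.19 in DMSO with 0 of 15 past 1.5-fold in either library, and oxidative phosphorylation genes medians of -0.04 in RO-3066 and 0.00 in DMSO with 0 of 39 past it. Apoptosis regulators had 2 of 20 higher and 2 lower in RO-3066 and 1 of 19 higher in DMSO. Genes of cytokine signalling feedback had 7 of 18 higher in RO-3066 and 4 of 19 in DMSO, with 0 lower.

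Integrated stress response genes ran both ways in RO-3066 and were lower where past 1.5-fold in DMSO. Mthfd2, a mitochondrial folate enzyme, had 43.2 CPM in low-proliferation cells against 78.4 CPM in other cells of RO-3066, and 37.4 CPM against 85.1 CPM in other cells of DMSO. Slc7a5, an amino acid transporter, had 18.0 CPM against 29.7 CPM in other cells of RO-3066 and 21.5 CPM against 36.8 CPM in other cells of DMSO. Xbp1, a factor of the unfolded protein response, had 219 CPM against 119 CPM in other cells of RO-3066 and 214 CPM against 154 CPM in other cells of DMSO. Of 22 genes of this list, 3 were higher and 2 lower in RO-3066, and 0 higher and 6 lower in DMSO.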
